A study of Mus musculus with 6 samples.

Results

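The mitochondrial carnitine shuttle and fatty acid beta-oxidation genes were followed in mouse liver through 10 genes: Cpt1a, Cpt2, Slc25a20, Acadvl, Acadl, Acadm, Hadha, Hadhb, Hadh and Acaa2. They were chosen by their gene symbol from the 23631 genes of the deposited table, and each symbol matched 1 row. The liver RNA came from male C57BL/6J mice, an inbred laboratory strain, and was sequenced in 6 libraries. The sample labels name 3 of them re-fed and 3 of them fasted for 48 h, while the treatment protocol speaks of normal feeding. Whether the first group had been fasted before it was fed is therefore not settled, and it is called refed here. No transgene or drug is named for either group, and the sources used here give no age for the mice. The comparison asks which transcripts are more or less abundant in liver after fasting than in the refed state.

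Long-chain fatty acids cross the inner mitochondrial membrane as carnitine esters. CPT1 on the outer membrane makes the ester, the carrier encoded by Slc25a20 moves it inward, and CPT2 on the inner membrane turns it back into an acyl-CoA. Each turn of the beta-oxidation spiral then shortens the acyl-CoA through a dehydrogenation, a hydration, a second dehydrogenation and a thiolytic cleavage. In liver the acetyl-CoA released feeds ketone body synthesis during fasting, and the ATP and NADH made alongside support gluconeogenesis. Malonyl-CoA, the first committed product of fatty acid synthesis, blocks CPT1 and so sets the rate of entry. Several genes of the pathway are known targets of PPARalpha, a nuclear receptor activated by fatty acids.

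Upstream sequence of members is shown because Cpt1a stood apart from the other genes in its change and because Hadha and Hadhb, the subunits of a single enzyme complex, lie head to head. Sequences were taken from the RefSeq promoter table (GRCm38.p6), in which 9 members matched and Acaa2 did not. The first stretch is the whole gap between the Hadha and Hadhb genes as annotated in GENCODE M21, read on the Hadhb strand at chr5:30155163-30155247. The second ends at the last base before the GENCODE M21 start of the full-length Cpt1a transcript, at chr19:3323151-3323284 on the plus strand. Capitals mark GC boxes, GGGCGG on either strand.
Hadha-Hadhb gap: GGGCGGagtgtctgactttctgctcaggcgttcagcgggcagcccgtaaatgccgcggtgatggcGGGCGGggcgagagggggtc
Cpt1a upstream: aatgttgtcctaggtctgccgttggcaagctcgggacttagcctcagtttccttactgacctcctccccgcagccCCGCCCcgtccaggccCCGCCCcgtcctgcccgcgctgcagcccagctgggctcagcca
The gap of 85 bases was 69.4% G and C with 9 CpG dinucleotides, and the Cpt1a stretch of 134 bases was 67.9% G and C, also with 9. Each held 2 GC boxes and overlapped no annotated exon, although a shorter Cpt1a transcript is annotated to start farther upstream. Across windows of 300 bases around gene starts, at least 1 GC box was found in 7 of 9 members and in 35.7% of all 32851 windows. The Hadha and Hadhb windows share 228 bases, and the GC box found for Hadha is also counted for Hadhb, so these members are not independent. The CCAAT box, searched as CCAAT on both strands, was in 2 of 9 members (Cpt1a and Hadh) and in 37.4% of windows. The Cpt1a match, at chr19:3323282-3323286, runs past the end of the printed stretch and across the GENCODE M21 start. A direct repeat with a single spacing base is the kind of site that PPARalpha and its partner RXR bind. The letters AGGTCA, any base and AGGTCA again were searched on both strands with up to 2 mismatches, and 1 of 9 member windows held such a match, against 3.86% of all windows. That match lay in Slc25a20, at chr9:108662142-108662154, from base 7 to base 19 of the transcript as counted from its RefSeq start. It is shown with the matching letters in capitals.
Slc25a20 direct repeat: AGGTgAaAGGTCg

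Before the members are compared, 1 library needs describing. Total counts per library ran from 29574528 to 36026753, and the members together took between 0.271% and 0.459% of them. Fasted replicate 3 stood apart from the other fasted libraries: the chi-square per gene between pairs was 32.6 for fasted replicates 1 and 2 but 214 and 192 when either was set against fasted replicate 3. Its summed level of 5 neutrophil markers was 136 CPM (read counts scaled to library size, as described below), against 1.05 and 1.93 CPM in the other fasted libraries and 0.141 to 0.442 CPM in refed ones. S100a8, S100a9, Mpo and Retnlg had 1608, 2344, 374 and 147 counts there, while Ly6g, a marker that defines the cell type, had 1 count and was at 0 in the other 5 libraries. The part of this in the results was not tested, and the tests of the members are given with and without that library.

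Among the 10 members, Cpt1a rose and Cpt2, Hadh and Acaa2 fell in fasted liver, and the other 6 did not pass. Counts were scaled with TMM factors, and the quasi-likelihood test of edgeR was adjusted by Benjamini-Hochberg over 13248 genes, at a threshold of 0.05. All 10 members passed the filter on low counts. The 1 that rose compares with 29.2% of all tested genes called higher, the 3 that fell with 30.2% called lower, and the 4 called with 59.4% called in either direction. The median log2 fold change, fasted over refed, was 0.39 over the members and -0.000387 over all tested genes. The SD of the member median between replicates was 0.46 on the log2 scale, larger than the 0.39. It is a spread between single libraries, not an error of the median change. Fasted replicate 3, the lowest fasted library in all 10 members, is part of it. The same 4 passed with library totals as the scaling, where 60% of genes were called, 21.7% higher and 38.3% lower, the median of all tested genes moved to -0.21 and that of the members to 0.17. DESeq2's Wald test called 3 members higher and 3 lower, against 29.6% and 29.7% of genes and 59.3% in either direction. In whole liver, fewer cells of a type and less RNA per cell cannot be told apart.

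Without fasted replicate 3, all 10 members passed: 7 rose and 3 fell, where 64.3% of 13559 tested genes were called, 31.6% higher and 32.7% lower. The median of the members was then 0.65, against -0.03 over all tested genes. The fasted group of that fit is replicates 1 and 2 only. The library left out, fasted replicate 3, was the lowest fasted one in all 10 members. When that library was left out and totals were the scaling, 6 rose, 3 fell and Hadha did not pass, where 64.8% of genes were called, 23% higher and 41.8% lower, while the median of all tested genes lay at -0.28. The authors' deposited table called the same 4 members in the same directions over all libraries, with 39.4% of its 22432 genes called.

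**Figure D1:**
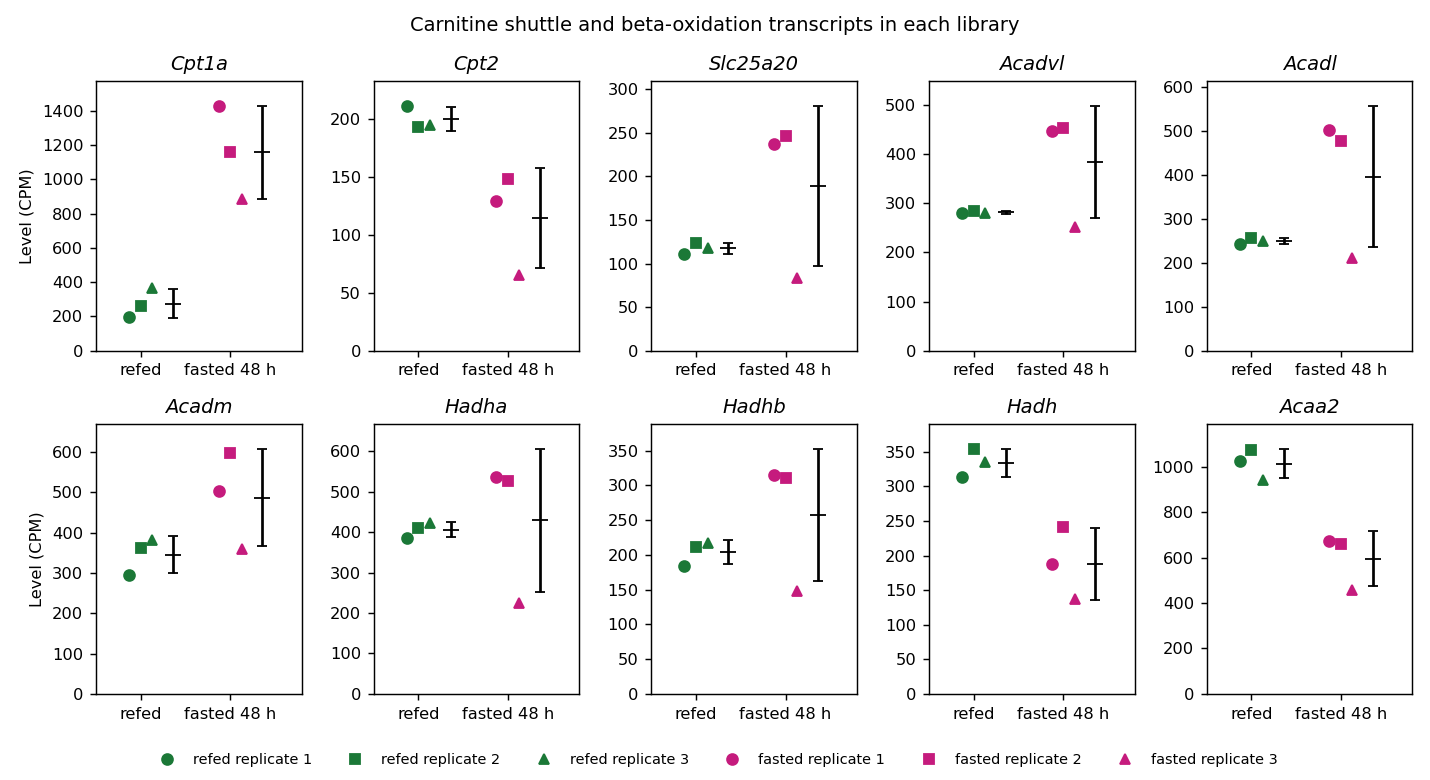
Level of each member in CPM (vertical axis from 0) in the 3 refed and 3 fasted libraries, with the mean and SD of each group as a black bar. Cpt1a lies above the refed range in every fasted library, Cpt2, Hadh and Acaa2 lie below it, and fasted replicate 3 (triangle) is the lowest fasted library in all 10 panels.

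The carnitine shuttle did not move as 1 unit. Cpt1a (ENSMUSG00000024900, chromosome 19 from 3323301 to 3385732, mm9) encodes the liver form of carnitine palmitoyltransferase 1, which commits long-chain fatty acids to oxidation. Refed libraries held 196, 261 and 366 CPM of Cpt1a and fasted libraries 1431, 1161 and 887 CPM. All fasted libraries were more than double the highest refed one. The change was 4.22-fold (2.08 on the log2 scale with an SE of 0.27, edgeR adjusted p = 0.000374). In the 5 libraries other than fasted replicate 3 it was 4.74-fold, and it passed under all 16 settings tried, between 1.86 and 2.33 on the log2 scale.

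Cpt2 (ENSMUSG00000028607, chromosome 4 from 107576586 to 107596215, mm9), the partner enzyme on the inner membrane, went the other way. It stood at 211, 193 and 194 CPM in refed livers and at 129, 148 and 65.6 CPM in fasted ones, so the groups did not overlap. The fall was 1.75-fold (-0.80 on the log2 scale with an SE of 0.27, edgeR adjusted p = 0.0352). Leaving out fasted replicate 3 gave a smaller fall with a smaller error, -0.52 on the log2 scale (SE of 0.11 and edgeR adjusted p = 0.00229). The call was lost when any 1 refed library or fasted replicate 1 was left out, and when low counts were not filtered, with an edgeR adjusted p between 0.054 and 0.0872 (0.000172 to 0.0872 across the alternatives).

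Slc25a20 (ENSMUSG00000032602, chromosome 9 from 108564429 to 108586972, mm9) encodes the carnitine-acylcarnitine carrier. Its levels were 111, 123 and 118 CPM in refed livers and 238, 247 and 82.9 CPM in fasted ones. Fasted replicates 1 and 2 were thus near double the refed level, and fasted replicate 3 was below all 3 refed libraries. Over all libraries the log2 fold change was 0.69 (SE of 0.37 and edgeR adjusted p = 0.143), and without fasted replicate 3 it was 1.05 (SE of 0.10 and edgeR adjusted p = 1.68e-05).

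The acyl-CoA dehydrogenases, which open each turn of the spiral and differ in the chain length they prefer, did not pass over all libraries, and of the 3 only Acadm had an unadjusted p under 0.05 in edgeR. Acadvl (ENSMUSG00000018574, chromosome 11 from 69823685 to 69828913, mm9) encodes the very long-chain enzyme of the inner membrane. It was steady in refed livers at 281, 285 and 279.5 CPM and stood at 447, 454 and 252 CPM in fasted ones. The annotated span of Acadvl shares 2119 bases with Dvl2, which had 134 to 286 counts per library against 8270 to 14915 for Acadvl itself.

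Acadl (ENSMUSG00000026003, chromosome 1 from 66877413 to 66909851, mm9), the long-chain enzyme, had 243, 256 and 249 CPM in refed and 502, 477 and 210.5 CPM in fasted livers. For Acadvl and Acadl alike, fasted replicates 1 and 2 lay above all refed libraries and fasted replicate 3 below all of them. Acadm (ENSMUSG00000062908, chromosome 3 from 153585321 to 153607596, mm9), the medium-chain enzyme, had 294, 361 and 382 CPM in refed and 504, 599 and 358 CPM in fasted livers. Here fasted replicate 3 fell inside the refed range.

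Over all libraries the log2 fold changes were 0.45 (SE 0.22) for Acadvl, 0.67 (SE 0.30) for Acadl and 0.49 (SE 0.21) for Acadm, with edgeR adjusted p of 0.113, 0.0898 and 0.0685. Leaving out fasted replicate 3, all 3 dehydrogenases rose, by 0.68 (SE 0.10), 0.97 (SE 0.10) and 0.68 (SE 0.14) on the log2 scale (edgeR adjusted p = 0.000248, 2.74e-05 and 0.00177). DESeq2's Wald test over all libraries called Acadl and Acadm higher as well (adjusted p = 0.0349 and 0.0334), but not Acadvl (adjusted p = 0.075).

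**Figure D2:**
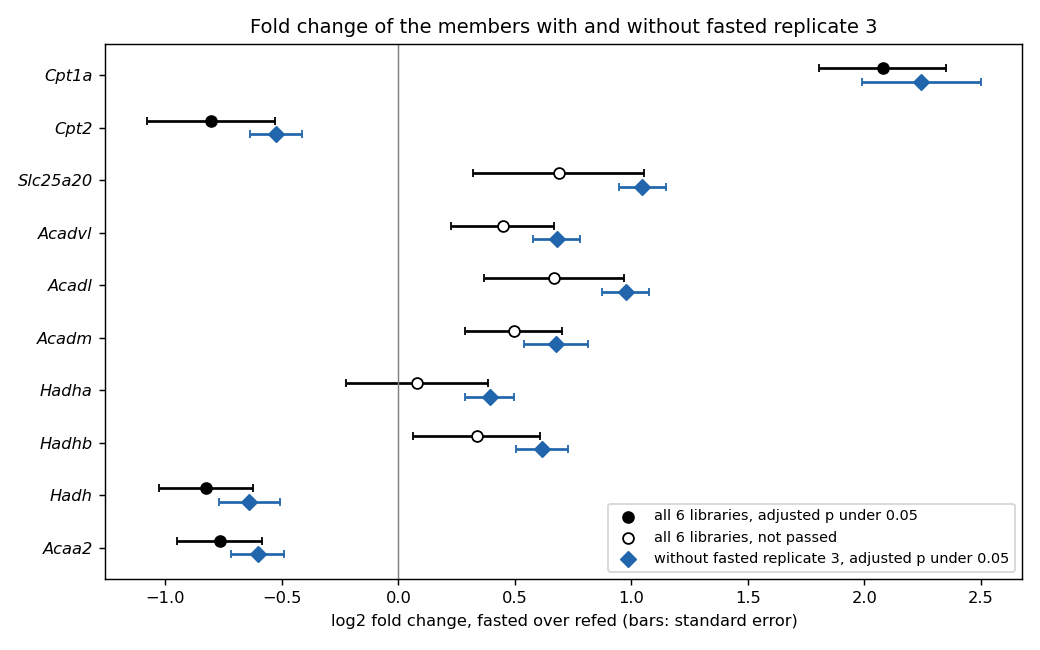
Log2 fold change of fasted over refed for each member with its standard error, from edgeR with all 6 libraries (black circles) and without fasted replicate 3 (blue diamonds); filled symbols had an adjusted p under 0.05. All members pass without that library, 7 to the right of 0 and Cpt2, Hadh and Acaa2 to the left.

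The mitochondrial trifunctional protein, an inner membrane complex that carries out the later steps on long chains, is made of alpha subunits from Hadha and beta subunits from Hadhb. The genes lie on chromosome 5 of mm9, Hadha (ENSMUSG00000025745) from 30444841 to 30481702 and Hadhb (ENSMUSG00000059447) from 30481788 to 30511133. Their facing starts in this annotation are 86 bases apart around the gap printed above. The RefSeq starts, on which the motif windows were placed, are 273 bases apart. Hadha had 386, 409.7 and 422 CPM in refed and 537, 526 and 225 CPM in fasted livers. Hadhb had 185, 212 and 217 CPM in refed and 315, 311 and 148 CPM in fasted livers. Both subunits were higher than every refed library in fasted replicates 1 and 2 and lower than every refed library in fasted replicate 3.

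Over all libraries the log2 change of Hadha was 0.08 (SE of 0.31 and edgeR adjusted p = 0.836), whose sign turned to -0.14 with library totals. That of Hadhb was 0.34 (SE of 0.27 and edgeR adjusted p = 0.319). Without fasted replicate 3 Hadha rose by 0.39 (SE of 0.11 and edgeR adjusted p = 0.00845) and Hadhb by 0.62 (SE of 0.11 and edgeR adjusted p = 0.000844). The Hadha call was lost when library totals were used as well (0.15, SE 0.11, edgeR adjusted p = 0.236).

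Hadh and Acaa2, the members that act late in the spiral on shorter chains, fell. Hadh (ENSMUSG00000027984, chromosome 3 from 130936337 to 130975019, mm9) encodes the short-chain 3-hydroxyacyl-CoA dehydrogenase. It stood at 313, 354 and 335 CPM in refed livers and at 187, 241 and 137 CPM in fasted ones. Acaa2 (ENSMUSG00000036880, chromosome 18 from 74938851 to 74965861, mm9) encodes the mitochondrial 3-ketoacyl-CoA thiolase. It stood at 1026, 1072 and 943 CPM in refed livers and at 674, 658 and 455 CPM in fasted ones. In both genes the groups did not overlap.

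Hadh fell 1.77-fold (-0.83 on the log2 scale with an SE of 0.20, edgeR adjusted p = 0.00791) and Acaa2 fell 1.70-fold (-0.77 on the log2 scale with an SE of 0.18, edgeR adjusted p = 0.00687). With fasted replicate 3 left out, the falls were -0.64 and -0.60 on the log2 scale, and both calls held under all 16 settings.

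Across the pathway, the levels of fasted replicate 3 were lower than those of its group throughout. It was the lowest of the 3 fasted libraries in 10 of 10 members, where 38.9% of tested genes had it lowest, and the lowest of all 6 libraries in 8, where 20.4% did. The log2 difference between it and the mean of the other fasted libraries ran from -1.55 for Slc25a20 to -0.55 for Cpt1a, with a median of -0.96 over the members and 0.00333 over all tested genes. A difference of -0.96 or lower was found in 3.8% of tested genes. In 5 members (Slc25a20, Acadvl, Acadl, Hadha and Hadhb) both other fasted libraries lay above and this one below every refed library, a pattern found in 2.17% of tested genes and chosen after these values were seen. Groups did not overlap for 1 member above and 3 below, where 32.8% and 34.4% of tested genes did not overlap in that direction and 67.2% in either. Without fasted replicate 3, 7 members lay above and 3 below, where 38.1% and 39.6% of the same genes did.

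**Figure D3:**
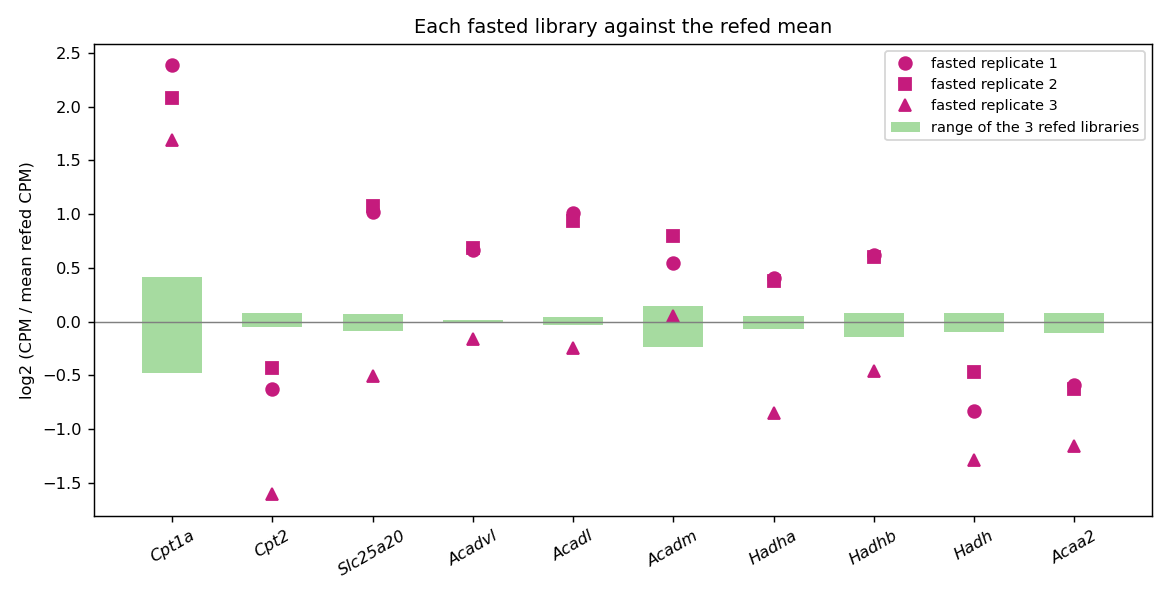
Log2 ratio of each fasted library's CPM to the mean refed CPM for the 10 members, with the range of the 3 refed libraries as a green bar. Fasted replicates 1 and 2 sit close together for most members, above the refed bar in 7 and below it in 3, and fasted replicate 3 lies under both in every member.

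A ratio of counts between partner genes within a library does not depend on how libraries are scaled. The Cpt1a to Cpt2 ratio was 0.93, 1.35 and 1.88 in refed and 11.1, 7.86 and 13.5 in fasted libraries. Cpt1a thus gained on Cpt2 in every fasted library, fasted replicate 3 included, by 2.99 on the log2 scale. The Cpt1a to Slc25a20 ratio was 1.78, 2.12 and 3.09 in refed and 6.02, 4.70 and 10.7 in fasted libraries, a difference of 1.57 on the log2 scale. These differences were 2.81 and 1.23 without fasted replicate 3.

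The Hadha to Hadhb ratio was the tightest within groups, at 2.09, 1.93 and 1.95 in refed and 1.71, 1.69 and 1.51 in fasted libraries. It was lower in all 3 fasted libraries: the mean log2 ratio was 0.99 ± 0.0614 in the refed group and 0.71 ± 0.0954 in the fasted group (SD, n = 3). For these 3 pairs the groups did not overlap, and the exact two-sided permutation test gave p = 0.1, the smallest that 3 against 3 allows (adjusted p = 0.2 over the 6 pairs compared). The Hadha to Hadhb difference was -0.28 on the log2 scale, and -0.23 without fasted replicate 3.

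For the other pairs the groups overlapped. The log2 ratio changed by 0.09 for Acadl to Acadm, by -0.07 for Acadvl to Acadm and by -0.08 for Hadh to Acaa2 (exact permutation p = 0.8, 0.6 and 0.7, each with an adjusted p of 0.8). Group SDs of these ratios ran from 0.108 to 0.382 on the log2 scale, and the differences were smaller than that.

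**Figure D4:**
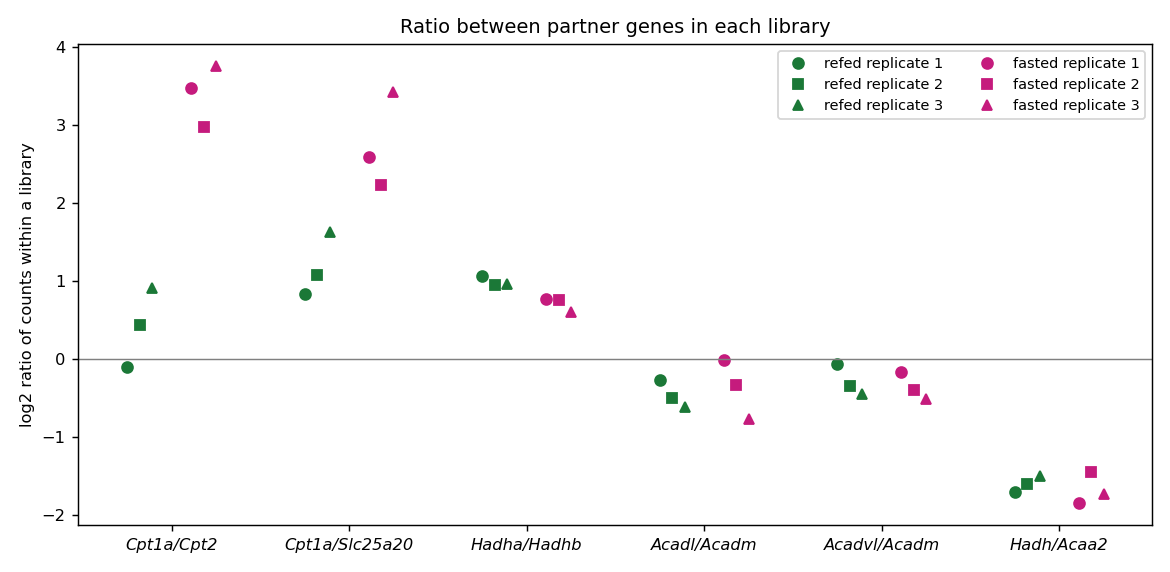
Log2 ratio of counts between partner genes in each of the 3 refed (green) and 3 fasted (pink) libraries. The groups are apart for Cpt1a/Cpt2, Cpt1a/Slc25a20 and Hadha/Hadhb and overlap for the other 3 pairs.

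The makeup of the pathway's reads differed between groups. Cpt1a gave 6.05%, 7.40% and 10.4% of the members' reads in refed libraries and 28.8%, 24.1% and 31.4% in fasted ones. Acaa2 gave 31.6%, 30.4% and 26.9% in refed and 13.6%, 13.6% and 16.1% in fasted libraries. Neither share overlapped between groups. They are parts of the same total, so a larger share of Cpt1a lowers that of Acaa2, and they are not independent. The members summed to 3426 ± 156 CPM in refed and 4201 ± 1198 CPM in the fasted group (SD, n = 3), and without Cpt1a to 3152 ± 109 and 3042 ± 961 CPM, differences smaller than the spread of the fasted libraries. That spread came from fasted replicate 3: fasted replicates 1 and 2 summed to 4964 and 4819.7 CPM, above the refed 3246 to 3528 CPM, and without Cpt1a to 3533 and 3659 CPM, above the refed 3049.6 to 3267 CPM.

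Levels of different genes were compared as CPM per kb of gene length. With the deposited lengths, Acaa2 was highest in refed livers at 669 ± 43.0 CPM per kb, followed by Acadm at 535 ± 71.3 and Acadvl at 367 ± 3.82, and Slc25a20 and Cpt1a were lowest at 65.8 ± 3.59 and 63.8 ± 19.9 (SD, n = 3). Only the last of these neighbours in the refed order overlapped in range. In fasted livers Acadm led at 753 ± 187 CPM per kb, Cpt1a was the fifth at 269.7 ± 63.3 and Hadh was last at 68.0 ± 18.8 (SD, n = 3), and the ranges of every pair of neighbours overlapped. Fasted replicate 3 was low in all of them. Compared within each library, the higher gene of most pairs lay above the lower in all 3 fasted libraries. For Acadl and Cpt1a, Cpt1a and Hadha, and Slc25a20 and Hadh, it did so in 2.

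The order depends on the length used, because the deposited lengths of 5 of 10 members equal the median length of their GENCODE M21 transcripts (within 0.0006 kb) and the longest transcript is up to 3.37 times the deposited length. The deposited length of Cpt2, for example, is 0.755 kb, against 2.372 kb for its longest transcript. With the longest transcript, only 5 of the 20 ranks in the 2 groups stayed the same. Acaa2 then led in both groups, at 669 ± 43.0 CPM per kb in refed and 393 ± 80.4 in fasted livers, and Cpt1a moved from the eighth place in refed livers, at 63.6 ± 19.8, to the second in fasted ones, at 269 ± 63.0 (SD, n = 3).

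Similarity of pattern was measured as the Euclidean distance between log2 CPM profiles, centred per gene, over the 6 libraries and 8694 other genes of at least 5 CPM. The genes closest to Cpt1a were Lhpp at 0.397, 1300015D01Rik at 0.401 and 2900026A02Rik at 0.453. Lhpp had 28.2, 50.9 and 60.6 CPM in refed and 228, 218 and 132 CPM in fasted livers. The closest member to Cpt1a was at 2.06. Profiles were not scaled, so this distance also grows with the size of a change and does not compare shape alone. Among members the closest pair was Slc25a20 and Acadl, at 0.294. Hadha and Hadhb were 0.382 apart, and 23 genes lay closer to Hadha than Hadhb did.

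Around the 10 members, 33 further genes of the pathway were looked up, of which 31 were tested: 12 rose, 3 fell and 16 did not pass, where 29.2% of all tested genes were called higher and 30.2% lower. Of 8 other carnitine genes, 6 were tested, 3 rose and 0 fell by edgeR, and the 3 that did not pass had unadjusted p between 0.46 and 0.73. DESeq2 also called none of them lower. Slc22a5, the plasma membrane carnitine transporter, had 19.7, 19.9 and 22.5 CPM in refed and 167, 124 and 29.1 CPM in fasted livers (2.36 on the log2 scale with an SE of 0.56, edgeR adjusted p = 0.00831). Crat, the carnitine acetyltransferase, had 55.2, 55.7 and 65.7 CPM in refed and 214, 169 and 72.8 CPM in fasted livers (1.37 on the log2 scale with an SE of 0.35, edgeR adjusted p = 0.0118). Both were much lower in fasted replicate 3 than in the other fasted libraries but still above the refed ones. Their log2 changes were 2.82 and 1.71 without it, and both calls were lost when low counts were not filtered (edgeR adjusted p = 0.0744 and 0.0805). Crat shares its locus with Dolpp1 and an antisense gene. The third, Cpt1b, the muscle form of CPT1, overlaps Chkb and stayed at or under 2.04 CPM in every library. The groups overlapped for Cpt1b, with fasted replicate 3 at 0.152 CPM and refed replicate 1 at 0.347 CPM. Its call was lost without any 1 of 4 libraries (refed replicates 2 and 3, fasted replicates 1 and 2). The Cpt1b call was also lost with limma-voom (adjusted p = 0.0795) and when low counts were not filtered (edgeR adjusted p = 0.137).

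Of 11 short-chain and auxiliary oxidation enzymes, 3 rose, 2 fell and 6 did not pass, with a median log2 fold change of 0.24. Over all tested genes, 29.2% were called higher, 30.2% lower and 59.4% in either direction. Acad10 no longer passed with library totals, which left 2 that rose. Its call was also lost without refed replicate 1 (edgeR adjusted p = 0.0590) and without fasted replicate 2 (edgeR adjusted p = 0.0508). Hsd17b10, the mitochondrial dehydrogenase that also acts on short 3-hydroxyacyl-CoAs and belongs to the mitochondrial RNase P, had 101, 142 and 146 CPM in refed and 598, 723 and 414 CPM in fasted livers. It rose 4.45-fold (edgeR adjusted p = 0.000162), in all 3 fasted libraries, while Hadh fell. Acad9, a dehydrogenase relative that also serves complex I assembly, fell between means of 37.6 ± 0.596 CPM and 17.4 ± 0.529 CPM (SD, n = 3), with an edgeR adjusted p of 4.56e-05. Acat1, the thiolase that handles acetoacetyl-CoA, fell between means of 484 ± 57.7 CPM and 289 ± 90.5 CPM (SD, n = 3), with an edgeR adjusted p of 0.0249. The call did not hold without refed replicate 2, refed replicate 3 or fasted replicate 1 with an edgeR adjusted p between 0.0568 and 0.0763 (0.000973 to 0.0763 across the alternatives). With fasted replicate 3 left out, 7 of the 11 rose and the same 2 fell, where 31.6% of tested genes were called higher and 32.7% lower. The log2 changes of Hsd17b10, Acad9 and Acat1 were then 2.35, -1.11 and -0.52.

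The electron transfer flavoprotein and its dehydrogenase, which take the electrons from the acyl-CoA dehydrogenases, did not pass in any of 3 genes over all libraries. The log2 change was 0.23 (SE 0.26) for Etfdh and 0.17 (SE 0.18) for Etfb, both with an edgeR adjusted p of 0.458. None of the 3 had an unadjusted p under 0.05, and DESeq2 called none. With fasted replicate 3 left out both rose, by 0.49 and 0.34 (edgeR adjusted p = 0.00736 and 0.0209), and with library totals as well none of the 3 did.

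Among 11 genes of malonyl-CoA turnover and transcriptional control, 6 rose, 1 fell and 4 did not pass, with a median log2 fold change of 1.09. The 7 called of 11 compare with 59.4% of all tested genes. Acaca, which makes malonyl-CoA in the cytosol and overlaps Gm11437 and Gm17722, had 157, 128 and 115 CPM in refed and 20.3, 17.9 and 17.7 CPM in fasted livers (-2.83 on the log2 scale with an SE of 0.15, edgeR adjusted p = 6.84e-06). Acacb, whose product makes malonyl-CoA at the mitochondrial surface, was at 198, 104 and 77.6 CPM in refed and 179.6, 147 and 91.0 CPM in fasted livers and did not pass. Mlycd, the malonyl-CoA decarboxylase, rose 2.14-fold (edgeR adjusted p = 0.000434). Esrra, a nuclear receptor of oxidative metabolism that overlaps Trmt112, had 37.9, 36.6 and 32.7 CPM in refed and 147, 126 and 102 CPM in fasted livers (1.81 on the log2 scale with an SE of 0.15, edgeR adjusted p = 4.37e-05).

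Ppara itself had 39.5, 63.0 and 95.1 CPM in refed and 107, 85.5 and 50.2 CPM in fasted livers, with overlapping groups and no call. Its partner Rxra and the coactivators Ppargc1a and Ppargc1b rose, the last 10.6-fold (edgeR adjusted p = 0.000103). Fasted replicate 3 was not the lowest fasted library for any of those 3. In the fit without it, the log2 changes of Acaca, Mlycd, Esrra and Ppargc1b were -2.79, 1.23, 1.94 and 3.06, and the same 7 genes of the list were called. Mlycd, Acacb, Ppara, Rxra, Ppargc1a and Ppargc1b were chosen for mention after their values were seen.

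**Figure D5:**
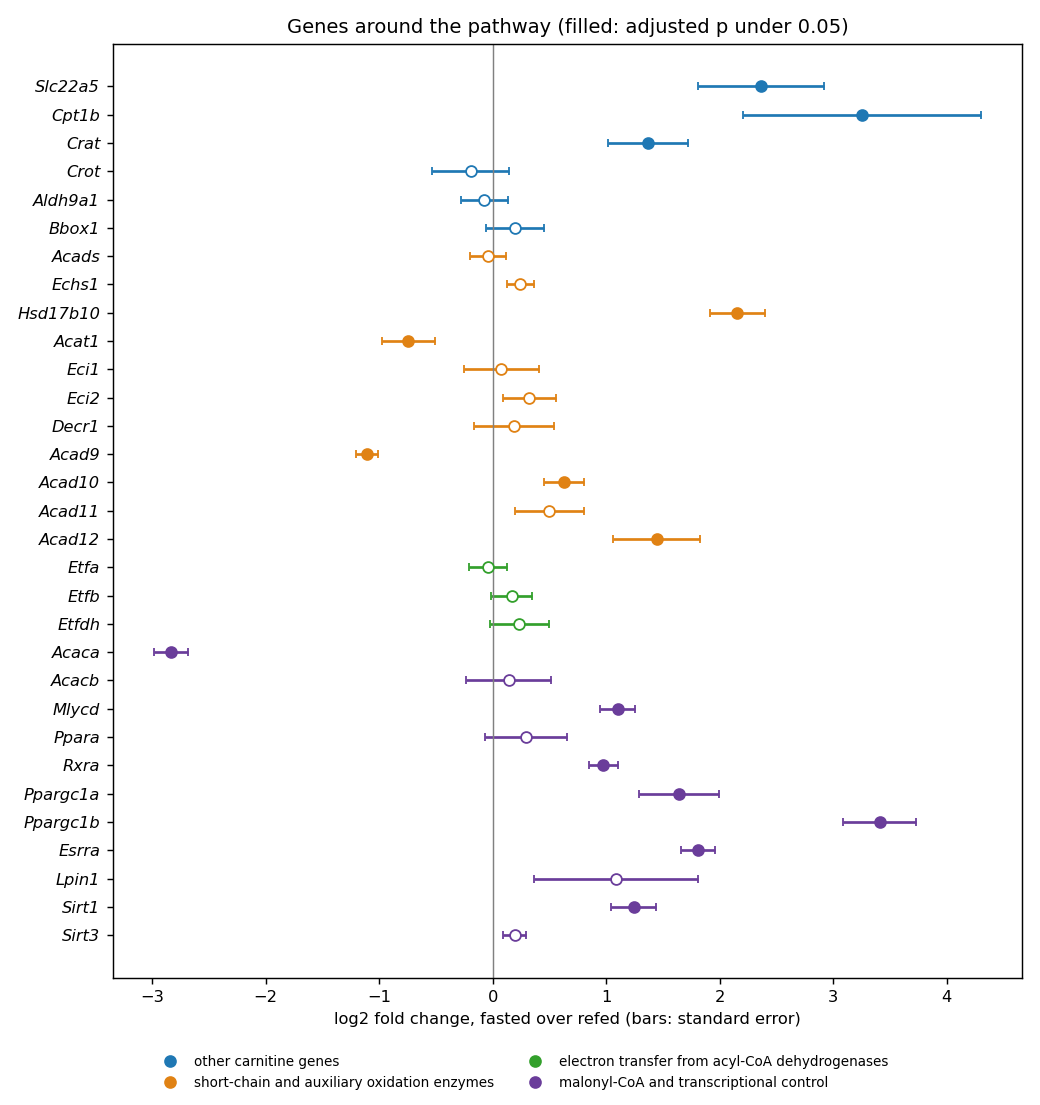
Log2 fold change of fasted over refed with its standard error, from edgeR with all 6 libraries, for 31 tested genes around the pathway in 4 lists; filled points had an adjusted p under 0.05. Ppargc1b and Cpt1b lie farthest to the right, at 3.41 and 3.25, and Acaca farthest to the left, at -2.83. Cpt1b stayed at or under 2.04 CPM and its groups overlapped.

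Hepatocyte transcripts led the marker lists. The summed level of 5 hepatocyte markers was 82634 to 99852 CPM in refed and 101260.0 to 127729 CPM in fasted livers, with 3 of them higher (Apoa1, Cps1 and Hnf4a), 1 lower (Ttr) and Alb not passing. The 7 stellate cell markers summed to 111 to 128 CPM in refed and 202 to 288 CPM in fasted livers, with Dcn called higher, Lrat called lower (3.34-fold) and 5 not passing. Without Dcn the sums overlapped, at 47.5 to 59.0 and 44.3 to 65.7 CPM. The 3 exocrine pancreas markers summed to 10.4 to 13.8 CPM in refed and 3.08 to 3.57 CPM in fasted livers. Nearly all of that was Cela1, which fell 4.03-fold, while Cela2a did not pass and Cpa1 had 1 count in all, and without Cela1 the sums overlapped. Sums of the macrophage, endothelial, cholangiocyte and lymphocyte lists overlapped between groups, as did the adipocyte list, which reached 5.01 CPM in refed replicate 2. Some single markers were called all the same. Among 7 endothelial markers, Pecam1 and Lyve1 (5.86-fold) were called higher and 5 did not pass. Among 7 macrophage markers, Emr1 was called lower (2.61-fold) and 6 did not pass. Of 5 cholangiocyte markers, Epcam and Sox9 were called higher, Spp1 lower, and 2 did not pass. The lymphocyte and adipocyte markers were not tested. No marker of these lists was at 0 in all 6 libraries, while Adipoq, Plin1 and Lep were at 0 in all but 1 or 2 of them and Ms4a1 at 0 in the 3 fasted ones. Their part in the members' changes was not tested.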

How the data were processed

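RNA was measured in 6 liver libraries, 3 refed and 3 fasted. The deposited table holds whole-number read counts of each gene, per the file headers, and every test started from them. Besides these, the authors deposited a normalized signal, also divided by gene length, a log2 fold change of fasted over refed, and its p-value and adjusted p-value, per the file headers. Per the submitters' processing notes, the build was mm9 and the tools were HTSeq 0.5.4p3, TopHat2 2.0.10, DESeq2 1.0.19 and Bowtie2 2.1.0, with no roles stated. Whether counting used strand is not stated, so reads of overlapping genes are uncertain.

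Genes were filtered with filterByExpr (minimum count 10), which kept 13248 of 23631, scaled with TMM and fitted by robust quasi-likelihood in edgeR 4.0.16 (R 4.3.3), with the group as the only term. CPM used TMM-scaled library sizes. The SE was taken as the size of the log2 fold change over the root of its F statistic. The fit was tested on simulated counts. Ratios were tested by exact permutation. The alternatives used DESeq2 1.42.0, limma-voom (limma 3.58.1), other scalings and filters, a replicate block, and fits that leave out 1 library each. The labels do not say whether samples came from separate animals, so p-values measure the spread between samples, which may be technical. The longest-transcript lengths, and the joint use of library totals without fasted replicate 3, were chosen after seeing the data.

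The members and lists were chosen with earlier results of these data known. All 10 members are named, along with the 2 genes of lowest p and the called genes against the majority in each related list, and the 3 genes nearest to Cpt1a. Tmlhe and 5 cell type markers were not analysed here under those symbols.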

Additional observations from a re-analysis of the deposited data

How the results depend on the processing

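The count of all genes called stayed within 1.5 times of 7866 under every alternative. The count of members called higher, 1 of 10, was 3 with DESeq2 and, with 1 library left out, from 1 to 7, the 7 being without fasted replicate 3; without that library and with library totals, an alternative chosen after seeing the data, it was 6. The count called lower was 2 or 3 throughout. Hadha, which did not pass over all libraries, changed sign to -0.14 with library totals, -0.0239 with limma-voom, -0.0175 with the replicate block, -0.11 without fasted replicate 1 and -0.08 without fasted replicate 2, and passed at 0.39 without fasted replicate 3. The other members kept their direction under every alternative. Of the ratio differences, Acadl to Acadm ranged from -0.0860 to 0.29 with 1 library left out, Acadvl to Acadm from -0.17 to 0.0357 and Hadh to Acaa2 from -0.19 to 0.00938, so these have no settled direction. Ranks of level per kb were shared in 20 of 20 cases with the deposited signal per kb and in 5 with the longest transcript as length, chosen after seeing the data. Same-numbered samples did not deviate together (correlations over genes -0.105, 0.0253 and -0.117), and the replicate block lowered the genes called to 7340 (55.4% of those tested) with 1 member higher and 3 lower. Members had 2154 counts or more in every library. The cause of these differences was not tested.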
